A study of Danio rerio with 8 samples.

Results

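The genes of the cytoplasmic ribosomal proteins were examined in RNA-seq of zebrafish lacking Hdac1 or the retinoic acid degrading enzymes Cyp26a1 and Cyp26c1. Members were taken by symbol, as rpl or rps followed by a number and at most 1 letter and further digits, together with rplp0, rplp1, rplp2, rplp2l and rpsa, and without the rps6k kinases. The rule found 72 of 31172 genes, 43 of the large subunit and 29 of the small subunit, and the same 72 in both deposited tables. A further 16 ribosomal protein genes are listed under other symbols, such as symbols in capitals or with a b or a point. These are not members and are named as such. There were 8 libraries, 1 per condition, so no difference below has a replicate check and no p-value is given.

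All fish were of the AB/TU strain. At 48 hours post-fertilization (hpf), whole embryos were taken as crg mutants, WT siblings of crg, Cyp26-deficient embryos and their own WT control. The crg allele is a chemically induced change at a splice donor of hdac1, so the mutation is in every cell. At 28 hpf, nkx2.5:ZsYellow+ cells were sorted from Hdac1-depleted and Cyp26-deficient embryos and from a WT control for each. The reporter follows the nkx2.5 promoter, which is active in heart progenitors and cardiomyocytes and also in pharyngeal arch cells, so the sort is not of 1 cell type. The stage is that of the labels and protocol, while a supplementary legend gives a later one. The methods describe morpholinos against hdac1, or against cyp26a1 and cyp26c1 together, with a p53 morpholino in all injections, which the WT controls are not stated to have received.

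The ribosome is built of a large and a small subunit, each a set of proteins on ribosomal RNA, and the proteins are made in near equal numbers. Their mRNAs are among the most abundant of a growing cell. In vertebrates most of them begin with a pyrimidine tract through which mTOR signalling and the RNA-binding protein Larp1 set their translation and stability together. Some members also act outside the ribosome. Free Rpl5 and Rpl11 bind the p53 inhibitor Mdm2, and in people loss of 1 copy of genes such as RPS19, RPL5, RPL11, RPL35A or RPS26 causes Diamond-Blackfan anaemia.

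Gene counts summed to 11070144 to 30257543 per whole-embryo library and to 13133598 to 19338815 per sorted library. The normalized hdac1 count was 2752 in crg mutants, lower than the 6725 of their WT siblings, and the exon upstream of the changed splice donor fell from 129 to 5.19 expected counts. In sorted cells hdac1 was at 27452 in the Hdac1-depleted library and 12004 in its control. The study describes the hdac1 morpholino as one that blocks translation, so the RNA does not check this depletion. All 11 cardiac markers found were expressed in the sorted cells, from 88 counts for hand2 to 52663 for ttna. The 2 WT libraries of sorted cells stood apart in the members themselves. Here and below, the log2 fold change is that of normalized counts with a pseudocount of 1. The members' median was 0.75 higher in the WT library of the Hdac1 pair than in the WT library of the Cyp26 pair. The median of all genes differed by -0.02. Of 71 members, 8 were over 2-fold higher, against 8.4% of genes. In whole embryos the WT siblings of crg and the WT library of the Cyp26 pair differed by a members' median of -0.08. There 0 members were past 2-fold, against 10.1% of genes higher and 14.9% lower. The medians of the sorted-cell comparisons and the members past 2-fold are therefore given against both WT libraries, and all other sorted-cell fold changes against the own control only. For the other WT library no share of all genes past 2-fold was computed. With the other WT library 14 of 28 named members kept their sign in Hdac1-depleted cells and 18 of 30 in Cyp26-deficient cells.

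Ribosomal protein genes took a larger share of the counts in whole embryos than in sorted cells, and the share was lower in Cyp26-deficient embryos and in Hdac1-depleted cells than in their controls. The members held 7.21% of the counts in WT siblings and 8.73% in crg mutants. They held 8.45% in the WT embryos for Cyp26 and 6.44% in Cyp26-deficient embryos. In sorted cells they held 4.56% in the WT library of the Hdac1 pair and 3.25% in Hdac1-depleted cells. The other sorted pair was at 3.06% in WT and 2.79% in Cyp26-deficient cells. The widest 95% exact (Clopper-Pearson) interval, in crg mutants, ran from 8.71% to 8.74%, and such intervals cover counting error only. The pairs differ by far more than that, but the pair of WT libraries in sorted cells differs as much as the Hdac1 pair. Against the other WT library the Hdac1-depleted share was 1.06 times its control, compared with 0.712 times against its own. In crg mutants the share was 1.21 times that of the own control and 1.03 times that of the other WT library. In Cyp26-deficient embryos these ratios were 0.762 and 0.893, and in Cyp26-deficient cells 0.912 and 0.612. The tables differ in RNA kit, library type and age, at 48 and 28 hpf. The step between embryos and sorted cells thus cannot be told apart from preparation or age.

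**Figure D1:**
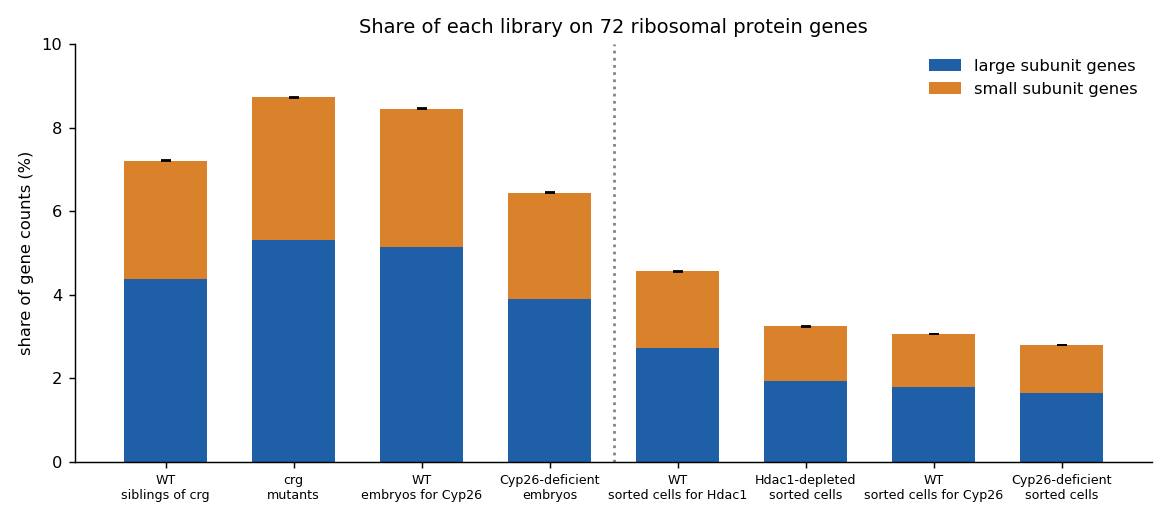
Share of gene counts (%) on 72 ribosomal protein genes in each of the 8 libraries, with large subunit genes in blue and small subunit genes in orange and the 95% exact interval of the sum as a black bar. Shares run from 6.44% to 8.73% in whole embryos, left of the dotted line, and from 2.79% to 4.56% in sorted cells.

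The ratio of summed counts, 43 large over 29 small subunit members, varied between 1.39 and 1.56. It was not corrected for the number or length of the genes, so it does not measure an excess of either subunit. Large subunit members held 1.53 times the counts of small subunit members in WT siblings, 1.56 times in crg mutants, 1.56 times in the WT embryos for Cyp26 and 1.54 times in Cyp26-deficient embryos. In sorted cells the ratio was 1.49 in the WT library of the Hdac1 pair, 1.47 in Hdac1-depleted cells, 1.39 in the WT library of the Cyp26 pair and 1.45 in Cyp26-deficient cells. No member was among the 10 genes with the most counts in any library.

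Levels of different members were compared as normalized counts per kilobase of annotated exon. One member, a row named rps20, is a fragment of 102 bases on chromosome 7 (Zv9, 59990938 to 59991039) with 0 to 2 counts. It is left out of what follows, which leaves 71 members whose mean over a table reached the minimum of 10 normalized counts. The row RPS20, outside the rule, held 26480 normalized counts in WT siblings. In whole embryos rplp0, the anchor of the stalk that recruits translation factors, was highest in all 4 libraries, at 44819 in WT siblings, 48427 in crg mutants, 51968 in the WT embryos for Cyp26 and 32050 in Cyp26-deficient embryos. The lowest was rpl7l1, a relative of rpl7, at 869 to 1189. In WT siblings the median was 18333, with quartiles of 11860 and 27791.

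In sorted cells the order was different. The small subunit protein gene rps7 was highest in the WT library of the Hdac1 pair, at 28085, and rplp2 was lowest in 3 of the 4 sorted libraries, at 288 to 498, while in the WT library of the Cyp26 pair rpl7l1 was lowest at 361 and rplp2 next at 362. rplp2 and rplp2l, which match the same stalk protein by name, held 7056 and 12209 normalized counts in WT siblings, and 518 and 6107 in the WT library of the Hdac1 pair. Spearman's rho of the per-kilobase levels over the 71 members was 0.96 to 0.99 between whole-embryo libraries, 0.95 to 0.98 between sorted libraries and 0.62 to 0.74 between the tables. Libraries of a table share age, kit, read type and normalization. Exon lengths include every annotated model, such as 6931 bases for rpl13a and 3569 for rps24. rpl13a and rps24 were both among the 4 lowest per kilobase in each whole-embryo library.

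**Figure D2:**
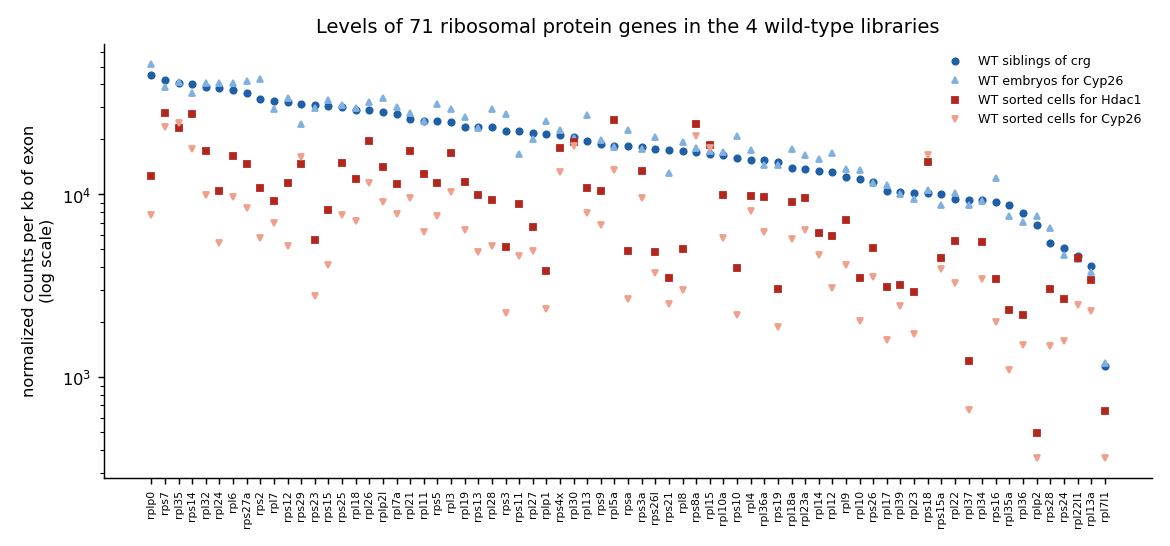
Normalized counts per kilobase of exon (log axis) of 71 ribosomal protein genes in the 4 wild-type libraries, ordered by the level in WT siblings of crg. Whole-embryo libraries are in blue and sorted libraries in red, normalized separately, so that only the order within a table is comparable. rpl7l1 is lowest in both whole-embryo libraries and rplp2 drops to the bottom in sorted cells.

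Cyp26-deficient embryos showed the difference that was most uniform in direction. All 71 members were lower than in the WT control, and all 71 counting intervals lay below 0, beside 6266 of those of 19888 genes. The median log2 fold change was -0.63, with quartiles of -0.70 and -0.54, while the median of all 19888 genes tested was -0.03 with quartiles of -0.30 and 0.27. Among the 3033 other genes averaging 1000 normalized counts or more, 1758 intervals lay below 0 and the median was -0.14. These genes share that minimum but were not matched to the members in level. Over the 71 members Spearman's rho of the fold change was -0.39 with mean level and -0.27 with exon length. The members' median was -0.63 for the large and -0.60 for the small subunit. None of the 71 passed 2-fold in either direction, against a background of 3.5% of genes raised and 2.59% lowered more than 2-fold. Of the 3033 other genes averaging 1000 normalized counts or more, 32 were raised and 63 lowered past 2-fold. By a 1.5-fold limit 45 members were lowered, against 9.44% of genes and 298 of the 3033 other genes averaging 1000 normalized counts or more. With size factors from total counts, which shift the median of all genes by 0.25, only 4 members passed that limit and their median was -0.37 over all 71. With these factors 70 members were lower and 1 higher, rpl22l1 at 0.18. The exon with the highest mean also gave 70 lower and 1 higher, rpl22l1 at 0.05. The members were also close to each other, with a standard deviation of 0.12 over members compared with 0.42 over the 3033 other genes that averaged 1000 normalized counts or more. The quartiles of those other genes were -0.35 and 0.07.

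The 3 lowest members in Cyp26-deficient embryos were rpl7a, rpl10a and rps7. rpl7a, on the surface of the large subunit, had 24329 normalized counts against 44449 in the control, a log2 fold change of -0.87 (95% counting interval -0.89 to -0.85). rpl10a had 12655 against 22962 (-0.86). rps7, a small subunit protein that is also among the anaemia genes, had 14781 against 26815 (-0.86). The WT siblings of crg had 40489 normalized counts of rpl7a, 22353 of rpl10a and 29205 of rps7, and crg mutants 44099, 24593 and 30781, so the Cyp26-deficient embryos held the lowest value of the 4 libraries for each. At the other end, rpl22l1 was at 3744 against 3935 (-0.07, -0.12 to -0.02). The next were rps28 at -0.41 and rpl7l1 at -0.45.

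Erythrocyte markers were lower in the same library. Of 9, 6 were lowered more than 2-fold, with a median of -1.46 and a sum of 30996 normalized counts against 92609. The 6 skeletal muscle markers had a median of -0.72, with 5 lower, 0 past 2-fold, and a sum of 184347 against 314748. The 11 cardiac markers had a median of 0.12, with 7 higher and 4 lower. The 5 neuron markers were at -0.22, with 4 lower and 1 higher. The 6 neural crest and pigment markers were at -0.30, with 5 lower and 1 higher. Whether cell composition has a part in the members' difference was not tested, and in bulk RNA fewer cells of a type cannot be told apart from less RNA per cell. In crg mutants the erythrocyte list had a sum of 96706 against 149271 and a median of -0.60. There 6 markers were lower and 3 higher, hbbe3 at 1.18. The muscle list was at -0.75 there, with all 6 markers lower.

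In crg mutants the members stood slightly above their WT siblings. The median was 0.09, with quartiles of 0.03 and 0.15, and the median of all genes was 0.01. There were 60 members higher and 11 lower. Of the members' counting intervals 52 lay above 0 and 4 below, beside 4940 and 4712 of those of 19888 genes. Among the 3033 other genes averaging 1000 normalized counts or more, 938 lay above 0 and 1358 below. No member passed 2-fold, against 6.43% of genes raised and 7.78% lowered, and none passed 1.5-fold. Of the 3033 other genes, 39 were raised and 106 lowered past 2-fold, and 187 and 343 past 1.5-fold. The standard deviation over members was 0.10 compared with 0.84 over the other genes averaging 1000 or more. That of the other genes includes outliers down to -10.8, and their quartiles were -0.33 and 0.19. In this comparison the list of 11 cardiac markers had a median of -0.89 and 5 of them were lowered past 2-fold.

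The highest members in crg mutants were rpl4, rpsa and rplp2l. rpl4, a core protein of the exit tunnel, had 49672 normalized counts against 38965 (0.35, 0.33 to 0.37). rpsa, related to the laminin receptor, had 55229 against 44953 (0.30). The WT embryos for Cyp26 held 44061 of rpl4 and 55088 of rpsa. For rpsa the mutant was thus above both WT libraries, but close to the higher one. rplp2l was at 0.28. The lowest were rpl7l1, with 1004 against 1265 (-0.33, -0.49 to -0.18), rpl37 at -0.08 and rps13 at -0.06. Against the WT embryos for Cyp26 the members' median in crg mutants was 0.02, with 39 higher and 32 lower.

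In Hdac1-depleted sorted cells the members' median was -0.42, with quartiles of -0.60 and -0.33, beside -0.01 for all 20033 genes tested. There were 66 members lower and 5 higher, with a median of -0.47 for the large and -0.40 for the small subunit. One member, rpl22l1, was lowered more than 2-fold and 0 were raised, against 12.7% and 12.4% of genes. By a 1.5-fold limit 20 were lowered, or 28.2% of the members tested, against 22.8% of genes. Of the 3263 other genes averaging 1000 normalized counts or more, 415 were lowered by that limit. Past 2-fold, 108 of these were lowered and 169 raised. The lower direction of the members belongs to 1 control. Against the WT sorted cells for Cyp26 the median was 0.22, with 47 higher and 24 lower, 1 lowered by 1.5-fold and 2 raised past 2-fold, rpl5a at 1.07 and rps3 at 1.08. Cells of the same reporter and stage therefore gave a lower or a higher median by the choice of WT library.

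After rpl22l1 the lowest members were rpl12 and rps9. rpl12, at the base of the stalk, had 4619 normalized counts in Hdac1-depleted cells, 9180 in their control, 4768 in the WT library of the Cyp26 pair and 3842 in Cyp26-deficient cells, a log2 fold change of -0.99 (-1.04 to -0.94). Its value in the Hdac1-depleted library lay close to that in the other WT library. rps9 had 6636 against 12968 (-0.97), with 8478 in the other WT library. The 3 highest were rps29, with 5701 against 5094 (0.16, 0.11 to 0.21), rpl5a, with 29569 against 26564 (0.15), and rps26l, with 2180 against 2007 (0.12). rpl5a held 14097 in the WT library of the Cyp26 pair.

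**Figure D3:**
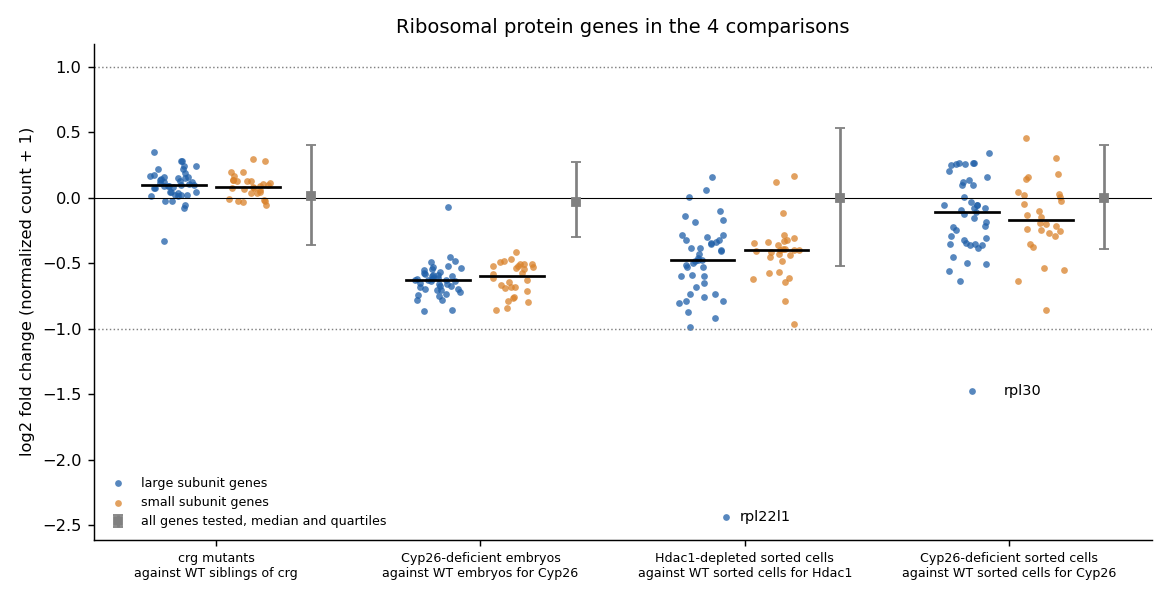
Log2 fold change of 71 ribosomal protein genes in the 4 comparisons, each point a gene, blue for the large and orange for the small subunit, with black lines at the medians. Grey squares and bars give the median and quartiles of all genes tested, and dotted lines mark 2-fold. Members lie in a narrow band below 0 in Cyp26-deficient embryos (median -0.63), and only rpl22l1 and rpl30 pass 2-fold.

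rpl22l1 (ENSDARG00000010244, Zv9 chromosome 24, 27271784 to 27276547, minus strand) is the paralog of rpl22, and in mouse Rpl22 represses the expression of Rpl22l1. Its normalized counts were 741 in Hdac1-depleted cells and 4024 in their control. They were 2221 in the WT library of the Cyp26 pair and 2226 in Cyp26-deficient cells. The Hdac1-depleted library was thus the lowest of the 4 by a wide margin. The log2 fold change was -2.44 (-2.55 to -2.33) against its own control and -1.58 against the other WT library, past 2-fold with both. In whole embryos rpl22l1 varied little, at 4083 in WT siblings, 3928 in crg mutants, 3935 in the WT embryos for Cyp26 and 3744 in Cyp26-deficient embryos. rpl22 itself had 3339 against 4426 in Hdac1-depleted cells (-0.41), close to the members' median.

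The fall of rpl22l1 was not even over its annotated transcripts. Transcript ENSDART00000079984 has as exon 3 a form of 122 bases (27274005 to 27274126), while ENSDART00000136871 uses a form of the same exon of 190 bases (27274005 to 27274194), extended at its upstream end. The normalized exon counts of the first fell from 3524 in the control to 301 in Hdac1-depleted cells, a log2 fold change of -3.55 (-3.71 to -3.39). Those of the second were 375 against 379 (-0.01, -0.21 to 0.18). Of the counts on these 2 forms, the longer took 134 of 226 in Hdac1-depleted cells, a share of 59.3% (95% exact interval 52.6% to 65.8%). It took 11.0% in their control (9.42% to 12.8%), 12.6% in the WT library of the Cyp26 pair and 8.38% in Cyp26-deficient cells. The depleted library thus stood apart from the other 3 sorted libraries. In whole embryos the share was 11.4% in WT siblings and 12.7% in crg mutants, with overlapping intervals, and 15.1% in the WT embryos for Cyp26 (13.4% to 16.9%) against 7.93% in Cyp26-deficient embryos (6.88% to 9.09%). These exon values are expected counts that the authors' software divided among overlapping exons, so the split between forms is uncertain. A further form of 329 bases (27274005 to 27274333), left out of these shares, held 21.7 expected counts in Hdac1-depleted cells and 10.4 in their control. Transcript and exon values were looked at after the gene's fold change had been seen.

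In Cyp26-deficient sorted cells the members spread to both sides of 0. The median was -0.13, with quartiles of -0.34 and 0.07, against 0.00 for all genes. There were 48 members lower and 23 higher, with medians of -0.11 for the large and -0.17 for the small subunit. Of the members' counting intervals 42 lay below 0 and 17 above, beside 5659 and 5382 of those of 20033 genes. Among the 3263 other genes averaging 1000 normalized counts or more, 1652 lay below 0 and 957 above. One member, rpl30, was lowered more than 2-fold and 0 were raised, against 7.6% and 8.81% of genes. Of the 3263 other genes averaging 1000 normalized counts or more, 54 were lowered and 37 raised past 2-fold. Against the WT library of the Hdac1 pair all 71 members were lower, with a median of -0.85 and 15 past 2-fold. Lists of markers of other cells differed in direction in the same library. The 5 neuron markers had a median of -0.40, with 4 lower, 1 higher and 1 lowered past 2-fold. The 9 erythrocyte markers had a median of 0.00, with 5 higher and 4 lower. The 6 skeletal muscle markers had a median of 1.18, all higher and 3 past 2-fold, with a sum of 11550 normalized counts against 7311. The 6 neural crest and pigment markers had a median of 0.70, all higher and 2 past 2-fold, with a sum of 1689 against 1081. The part of these other cells in the members' values was not tested. The highest members with the own control were rps3, at the entry channel for mRNA, with 3251 normalized counts against 2374 (0.45, 0.37 to 0.54), rpl10, needed for the last steps of large subunit maturation, with 5562 against 4392 (0.34), and rps2 with 10386 against 8408 (0.30). The WT library of the Hdac1 pair held 5448 of rps3, 7596 of rpl10 and 15739 of rps2, so the deficient cells lay between the WT libraries for each.

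rpl30 (ENSDARG00000035871, chromosome 19, 34230603 to 34236244, plus strand), a large subunit protein that in yeast regulates the splicing of its own mRNA, had 4525 normalized counts in Cyp26-deficient cells and 12563 in their control. It had 13274 in the WT library of the Hdac1 pair and 10911 in Hdac1-depleted cells, so the Cyp26-deficient library was the lowest of the sorted libraries. The log2 fold change was -1.47 (-1.53 to -1.42), and -1.55 against the other WT library. rps18, on the head of the small subunit, was next, with 13634 against 24737 (-0.86, -0.89 to -0.83), and 22549 in the other WT library. The third was rpl7a, with 7363 against 11479 (-0.64).

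The difference of rpl30 and rps18 grew towards the 3′ end of the gene. Over the exons of rpl30 in Cyp26-deficient cells the log2 fold change was -0.69 (-0.91 to -0.47) in the second exon, -0.92 in the fourth, -1.31 in the fifth and -2.05 (-2.14 to -1.96) in the sixth and last. The first exon held 56 and 86 counts and the third 6 and 4. Over the exons of rps18 it was 0.39 (0.21 to 0.57) in the third, -0.05 in the fourth and -0.94 to -1.01 in the last 3 exons. A few other members were read from the exon nearest the 5′ end to that nearest the 3′ end. There rpl5a ran from 0.62 to -0.08 and rpl22 from -0.15 to -0.81. Their 5′ values rest on few expected counts, 49.9 and 27.9 in the control for rpl5a and 39.1 and 37.7 for rpl22. In contrast rps29 ran from -0.51 to -0.50. In rpl22l1 the first exon was at 0.12 in its form of 94 bases and -0.38 in its form of 198 bases. These forms held 53.1 and 34.4 expected counts, and 42.3 and 39.0 in the control. The last exon of rpl22l1, in its form of 259 bases, was at -0.05. In Hdac1-depleted cells the second to last exons of rpl30 with over 10 counts were at -0.25 to -0.38, without such a slope. Over all 71 members the share of a gene's exon counts on its last exon had a median of 23.2% in Cyp26-deficient cells and 27.5% in their control, and 25.4% and 26.9% in the Hdac1 pair. For rpl30 it was 31.8% and 47.6%, and 41.0% and 40.0% in the Hdac1 pair. The last exon's share thus differed between the libraries of the Cyp26 pair over the members as a whole. The part of coverage along the transcript in these folds was not tested.

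**Figure D4:**
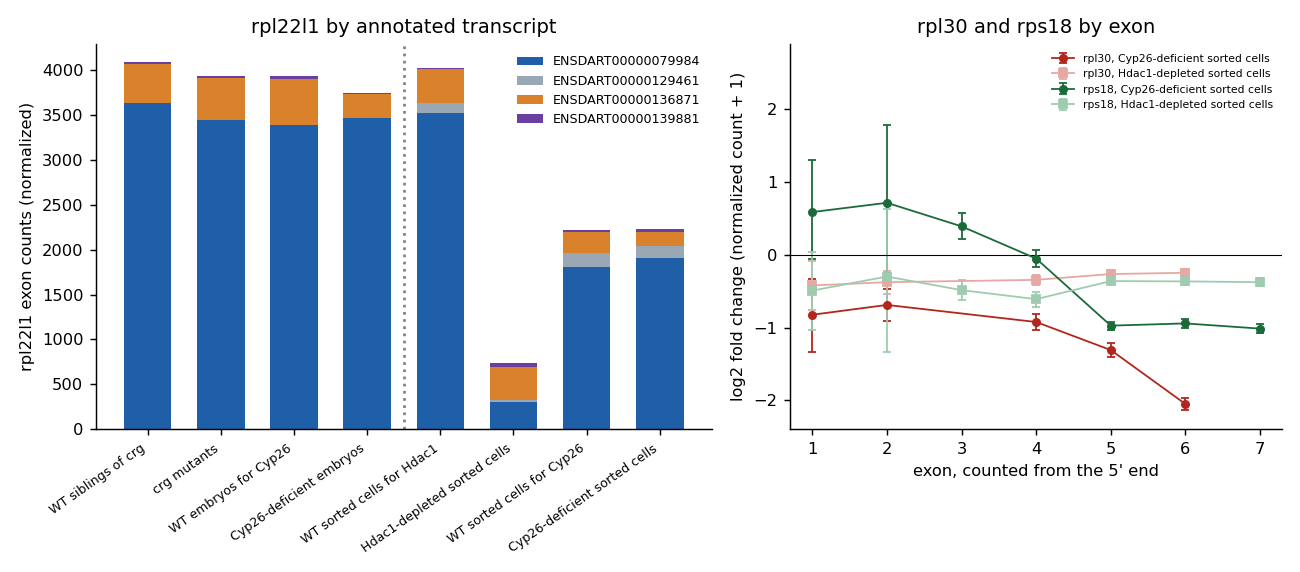
Left, normalized exon counts of rpl22l1 in the 8 libraries, stacked by annotated transcript, where the blue transcript falls to 301 in Hdac1-depleted cells and the orange one stays at 375. Right, log2 fold change by exon from the 5′ end for rpl30 and rps18 in the sorted-cell comparisons (exons with over 10 counts, bars are 95% counting intervals), where the Cyp26 lines descend to -2.05 and -1.01.

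The stalk proteins contact elongation factors. In the order crg mutants, Cyp26-deficient embryos, Hdac1-depleted cells, Cyp26-deficient cells, the log2 fold change of rplp0 was 0.11, -0.70, -0.79 and -0.50. rplp1 was at 0.10, -0.53, -0.38 and 0.26 in the same order, and rplp2 at 0.10, -0.64, -0.10 and -0.33. Of the 5S particle that binds Mdm2, rpl11 was at 0.16, -0.60, -0.17 and 0.21. rpl5a was at 0.28, -0.62, 0.15 and 0.25.

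Other members linked to anaemia in people were rps19, rps24, rps26, rpl35a and rpl26. With the comparisons in the same order, rps19 was at 0.03, -0.71, -0.57 and -0.19. rps24 was at 0.03, -0.69, -0.79 and -0.11, and rps26 at 0.08, -0.54, -0.44 and -0.29. rpl35a was at -0.03, -0.55, -0.43 and 0.26, and rpl26 at 0.22, -0.62, -0.60 and -0.08. rps14, the gene in the region lost in the human 5q- syndrome, was at -0.01, -0.68, -0.64 and -0.55. None of these passed 2-fold in any comparison.

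Of the remaining members followed in every comparison, rpl3, a core protein near the catalytic centre, was at 0.24, -0.78, -0.92 and -0.30, again in that order. rpl7 was at 0.13, -0.75, -0.69 and -0.36. rpl13a, often used as a reference gene in RT-qPCR, was at 0.04, -0.74, -0.59 and -0.25. rpl24 was at 0.02, -0.52, -0.40 and 0.26. rps27a, which encodes ubiquitin fused to a small subunit protein, was at 0.13, -0.53, -0.35 and -0.25. rpsa and rps29 were at -0.51 and -0.52 in Cyp26-deficient embryos and at 0.02 and -0.54 in Cyp26-deficient cells.

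Paralogs were set side by side. In Hdac1-depleted cells rps26 was at -0.44 and rps26l at 0.12, and rplp2 at -0.10 and rplp2l at 0.05. Normalized counts of rps26l were 2180 against 2007, and those of rps26 1701 against 2312. rpl5a, at 0.15 there, contrasted with rpl5b, outside the rule, at -0.64 (14922 against 23329). In the 3 other comparisons rpl5a and rpl5b were at 0.28 and 0.29, -0.62 and -0.78, and 0.25 and -0.09. Near-identical copies can share reads, so the split within a pair is uncertain. Of the 16 ribosomal protein genes outside the rule, only RPS27L was raised past 2-fold. It is named after its values were seen. Its human ortholog is a p53 target. It had 1099 normalized counts in Hdac1-depleted cells, 177 in their control, 192 in the WT library of the Cyp26 pair and 411 in Cyp26-deficient cells, so both deficient libraries lay above both WT libraries. The log2 fold change was 2.63 (2.42 to 2.85) and 1.09 (0.82 to 1.37). In whole embryos it was 0.64 in crg mutants and -0.02 in Cyp26-deficient embryos. RPS6, the small subunit protein phosphorylated downstream of mTOR, was at 0.23, -0.50, -0.59 and 0.26, and RPL38 at 0.05, -0.54, -0.40 and -0.21, in the order used above.

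Other parts of the translation machinery were read from lists of fixed genes. The 24 translation factors found had a median of -0.63 in Cyp26-deficient embryos, the same as the members. There 22 were lower and 2 were lowered past 2-fold, eef1g at -1.28 and eif4a1a at -1.03. Their medians in crg mutants and the Hdac1 and Cyp26 sorted pairs were 0.26, -0.27 and 0.04. The 35 ribosome biogenesis genes, which process ribosomal RNA in the nucleolus, were at -0.18 in Cyp26-deficient embryos with 0 past 2-fold, and at 0.12, -0.15 and -0.20 in the others. The 9 subunits and factors of RNA polymerase I, which transcribes ribosomal RNA, were at -0.28 in Cyp26-deficient embryos and at -0.13, -0.09 and -0.10 in the others.

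The 49 mitochondrial ribosomal protein genes, which serve a separate ribosome, had a median of -0.18 in Cyp26-deficient embryos, where 46 of 49 were lower, as the cytoplasmic members were. In crg mutants it was -0.34, with 40 of 49 lower, while most cytoplasmic members were higher. In sorted cells it was 0.03 in the Hdac1 pair and 0.15 in the Cyp26 pair. The Myc and mTOR list of 15 genes, of which 14 were tested in sorted cells, had medians of 0.32, 0.02, 0.14 and 0.08 over the comparisons in that order. In Hdac1-depleted cells 10 of the 14 were higher and 4 lower. The highest there was mxd1, a Myc antagonist, at 2.17, and the lowest was myca at -1.34. There rheb, an activator of mTOR, was under the minimum mean with 14 and 2 counts. The 10 proliferation genes found had medians of -0.09, 0.01, -0.41 and 0.31, and in Hdac1-depleted cells all 10 were lower. The erythrocyte list there was at a median of -1.34 and a sum of 676 normalized counts against 2376. The skeletal muscle list was at a median of -0.60 and a sum of 9635 against 14828. The neuron list was at a median of -0.84, with 4 lower and 1 higher. The cardiac list was at 0.00, with 6 higher and 5 lower. The neural crest and pigment list was split, with 4 of 6 markers raised past 2-fold and 2 lower, tyrp1b at -4.57. Its median was 3.27 and its sum 8559 against 1369. The part of these cells in the members' values was not tested.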

How the data were processed

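RNA was sequenced from 8 libraries, 1 per condition, on an Illumina platform. Whole-embryo libraries were single-end and stranded, and RNA of sorted cells was amplified and sequenced paired-end. The authors aligned reads to Zv9/danRer7 with Strand-NGS, whose version is not given in the sources used here, and deposited expected counts per gene and exon without normalization, 1 table for embryos and 1 for sorted cells. Expected counts were rounded, divided by median-of-ratios size factors within each table (DESeq2 1.42.0, R 4.3.3) and compared as log2 values with a pseudocount of 1. Genes averaging 10 normalized counts or more over a table were held against a limit of 2-fold, with no p-value. Intervals are 95% exact (Clopper-Pearson). Python 3.11.15 was used, with pandas 2.3.3, numpy 2.4.6, matplotlib 3.10.9 and scipy 1.17.1, and the calculations were tested on simulated data.

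The members and lists were chosen with earlier results of these data known. Named in each comparison were members past 2-fold, the 3 highest, the 3 lowest and a fixed list of members. Of that list rpl3l and rpl41 were not found, and rpl38, rps6 and rps27l are listed in capitals, outside the rule. Some items are not reported here. Alternatives were edgeR 4.0.16 TMM factors, total counts, factors without the members or within a pair, pseudocounts of 0.1 and 10, the other WT control, the exon with the highest mean, other filters and folds, and a wider membership.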

Additional observations from a re-analysis of the deposited data

Results flagged for a closer look

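Between the Cyp26 comparisons, 17 members were lower in Cyp26-deficient embryos and higher in Cyp26-deficient sorted cells, with both counting intervals clear of 0. All 71 intervals lay below 0 in the embryos. The 17 are thus the members whose interval lay above 0 in sorted cells, as did that of 5382 of 20033 genes. It also did for 957 of the 3263 other genes averaging 1000 normalized counts or more. The difference between the comparisons was not tested, as each condition has 1 library. In the sorted cells the log2 fold change was 0.45 for rps3, 0.34 for rpl10, 0.30 for rps2, 0.26 for rpl24, rpl35a and rplp1, 0.25 for rpl5a, 0.21 for rpl11 and 0.16 for rplp2l. Against the other WT library of sorted cells all 71 members were lower.

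RPS27L, which is not a member, was above its control, at 2.63 in Hdac1-depleted and 1.09 in Cyp26-deficient sorted cells. Exon rows, which the comparisons of genes do not use, put 59.3% of the counts on the 122-base and 190-base forms of exon 3 of rpl22l1 on the longer form in Hdac1-depleted cells.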

How the results depend on the processing

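No paired analysis was possible because each condition has 1 library and the labels give no replicate numbers. In sorted cells the other WT control moved the medians the most, and in whole embryos size factors from total counts did. Against the other WT library, medians were 0.022 in crg mutants, -0.53 in Cyp26-deficient embryos, -0.85 in Cyp26-deficient cells and 0.22, reversed, in Hdac1-depleted cells. It lowered 1 member past 2-fold in Cyp26-deficient embryos and 15 in Cyp26-deficient cells, raised 2 in Hdac1-depleted cells and left 1 lowered by 1.5-fold there. Total counts shifted the median of all genes by 0.16 in crg mutants and 0.25 in Cyp26-deficient embryos. The members' medians were then 0.26, -0.37 and, in Cyp26-deficient cells, -0.049. Relative to all genes, they were at 0.08, -0.59 and -0.13. With total counts 4 members were lowered by 1.5-fold in Cyp26-deficient embryos and 3 past 2-fold in Hdac1-depleted cells. The exon with the highest mean gave a median of -0.31 in Cyp26-deficient cells, 1 member lowered past 2-fold in Cyp26-deficient embryos and 5 in Hdac1-depleted cells. A limit of 1.5-fold lowered 45, 20 and 4 members in Cyp26-deficient embryos, Hdac1-depleted cells and Cyp26-deficient cells, and one of 4-fold left 0 in the last. In Cyp26-deficient cells 3402 of 20033 genes were lowered by 1.5-fold. So were 283 of the 3263 other genes averaging 1000 normalized counts or more. With total counts, the exon with the highest mean or the 4-fold limit, no share of all genes was computed. With the wider membership 1 gene was raised in each sorted comparison and 2 lowered in Cyp26-deficient cells. The cause of these moves was not tested.

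Shares with the wider membership and without the 10 genes with the most counts were 8.08% and 8.12% in WT siblings, 9.80% and 9.65% in crg mutants, 9.49% and 9.22% in WT embryos for Cyp26, 7.24% and 6.97% in Cyp26-deficient embryos, 5.06% and 5.01% in the WT sorted control for Hdac1, 3.61% and 3.66% in Hdac1-depleted cells, 3.37% and 3.37% in the WT sorted control for Cyp26, and 3.09% and 3.06% in Cyp26-deficient cells. Of 928 values of named members, 641 stayed within their counting interval and 287 did not. Counting intervals hold no difference between embryos, sorts or preparations, and 1 library per condition leaves that unmeasured.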
